A study of Mus musculus with 16 samples.

Results

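The proteasome is the protease complex that degrades ubiquitin-tagged proteins, and the genes of its constitutive subunits were followed here in the hippocampus of mice in which CREB-dependent transcription was activated or inhibited. Members were the probe sets whose annotated symbol is Psma, Psmb, Psmc, Psmd, Psme or Psmg with a digit, without the immunoproteasome genes Psmb8, Psmb9 and Psmb10. The symbols matched 93 probe sets of 44 genes, and 73 probe sets of 42 genes had an intensity above 99 on 2 or more of the 16 arrays. In all, 27047 probe sets passed the same filter and were tested, and those with a single symbol cover 12734 genes. Of the 20 that did not pass, 18 belong to genes measured by another probe set, and the remaining 2 are the only probe sets of Psma8 (highest intensity 80.9) and Psmb11 (69.1), paralogues of the core known from testis and thymus. Just inside the threshold was a Psme4 probe set above 99 on 4 arrays, and just outside were probe sets of Psmd13 and Psmd9, each above 99 on 1 array.

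Each array held RNA pooled from the hippocampi of 3 to 4 mice of like age, sex and genotype, so the spread between pools was measured and that between single mice was not. VP16-CREB is a fusion of CREB, the cAMP response element binding protein, with a viral activation domain, and it activates CREB targets without a signal. Its mice (labelled tetO-VP16-CREB C57BL/6J) were raised on doxycycline, which keeps the transgene silent, and were studied when 6 weeks old, 3 weeks after its removal (3 pools), or when 3 weeks old, 1 week after its removal (2 pools). A-CREB is a dominant negative partner that keeps CREB off DNA, and its mice (labelled TetO-A-CREB-95 C57BL6 F1/J) were raised without doxycycline and studied at 6 weeks (3 pools). Every transgenic group had the same number of pools of control littermates, labelled WT and kept under the same doxycycline schedule. The series calls the transgenic mice bitransgenic, and the promoter that drives the transgene is not given in the sources used here.

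The 26S proteasome consists of a barrel, the 20S core, and a 19S cap at its ends. The core has outer rings of alpha subunits (Psma genes), which gate entry, and inner rings of beta subunits (Psmb genes). Of the beta subunits, Psmb5, Psmb6 and Psmb7 carry the proteolytic sites. The cap recognises ubiquitin chains, removes them and unfolds the substrate with a ring of ATPases (Psmc genes) and a set of non-ATPase subunits (Psmd genes). Interferon is known to induce Psmb8, Psmb9 and Psmb10, which replace the catalytic subunits in the immunoproteasome, and Psme1 and Psme2, the subunits of the PA28 activator that can take the place of the cap. Constitutive proteasome genes are also known to be raised together by Nfe2l1 when proteolysis is blocked.

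Arrays of VP16-CREB mice at 3 weeks and of their controls stood apart from the rest, with a median intensity of 118.9 to 129.3 on 6 arrays against 75.0 to 93.2 on the other 10, so transgenic pools were compared only with the controls of their own cohort. The neuronal markers Rbfox3, Snap25 and Syt1 were bright in all 16 pools (lowest intensities 5007, 18997 and 11704), as the label hippocampus requires. Xist, the transcript of the inactive X chromosome, was at 34.5 and 63.4 in the control and A-CREB pools numbered 1 of the A-CREB cohort and at 3611 or more elsewhere, so these pools hold males and the other 14 hold females. In the 3 week comparison 13 of 14 microglial markers and 8 of 10 interferon response genes rose and 4 of 4 dentate granule neuron markers fell.

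None of the 73 proteasome probe sets passed the test in any transgene comparison. The test was limma's moderated one, with Benjamini-Hochberg adjustment over all 27047 probe sets and a threshold of 0.05 on the adjusted p. At 3 weeks of VP16-CREB 0 of 73 were called, where 3.93% of all probe sets were called (3.28% higher and 0.651% lower). At 1 week 0 of 73 were called against 0.237% of all (0.218% higher and 0.0185% lower), and in A-CREB mice 0 of 73 against 0% of all. At an unadjusted p under 0.05 the members numbered 2 at 3 weeks (Psme2 and a dim Psme4 probe set that passed the filter through its high controls) against 13.5% of all probe sets, 0 at 1 week against 5.27%, and 4 in A-CREB mice against 4.33%. The 1 exception among the settings tried was a fit that weights arrays by quality, which called 3 members at 3 weeks, the same Psme4 probe set among them, while calling 4139 probe sets in all.

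The intervals of the differences were narrow. With each gene represented by its probe set of highest mean intensity, the 95% interval of the log2 difference lay within a 2-fold change in either direction for all 42 genes in each of the 3 transgene comparisons. It lay within 1.5-fold for 32 genes at 3 weeks, 30 at 1 week and 31 in A-CREB mice. Counting all 73 probe sets rather than 1 per gene, it lay within 2-fold for 70, 68 and 66 in the same order. Within 1.5-fold it lay for 48, 39 and 44 of the 73. Among all 27047 probe sets tested, the interval lay within 2-fold for 75.7% at 3 weeks, 69.5% at 1 week and 81.6% in A-CREB mice. Within 1.5-fold it lay for 8979, 6512 and 11045 of the 27047. Differences are given as transgenic minus control on the scale of log2 of the intensity plus 10, which understates changes of dim probe sets.

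**Figure D1:**
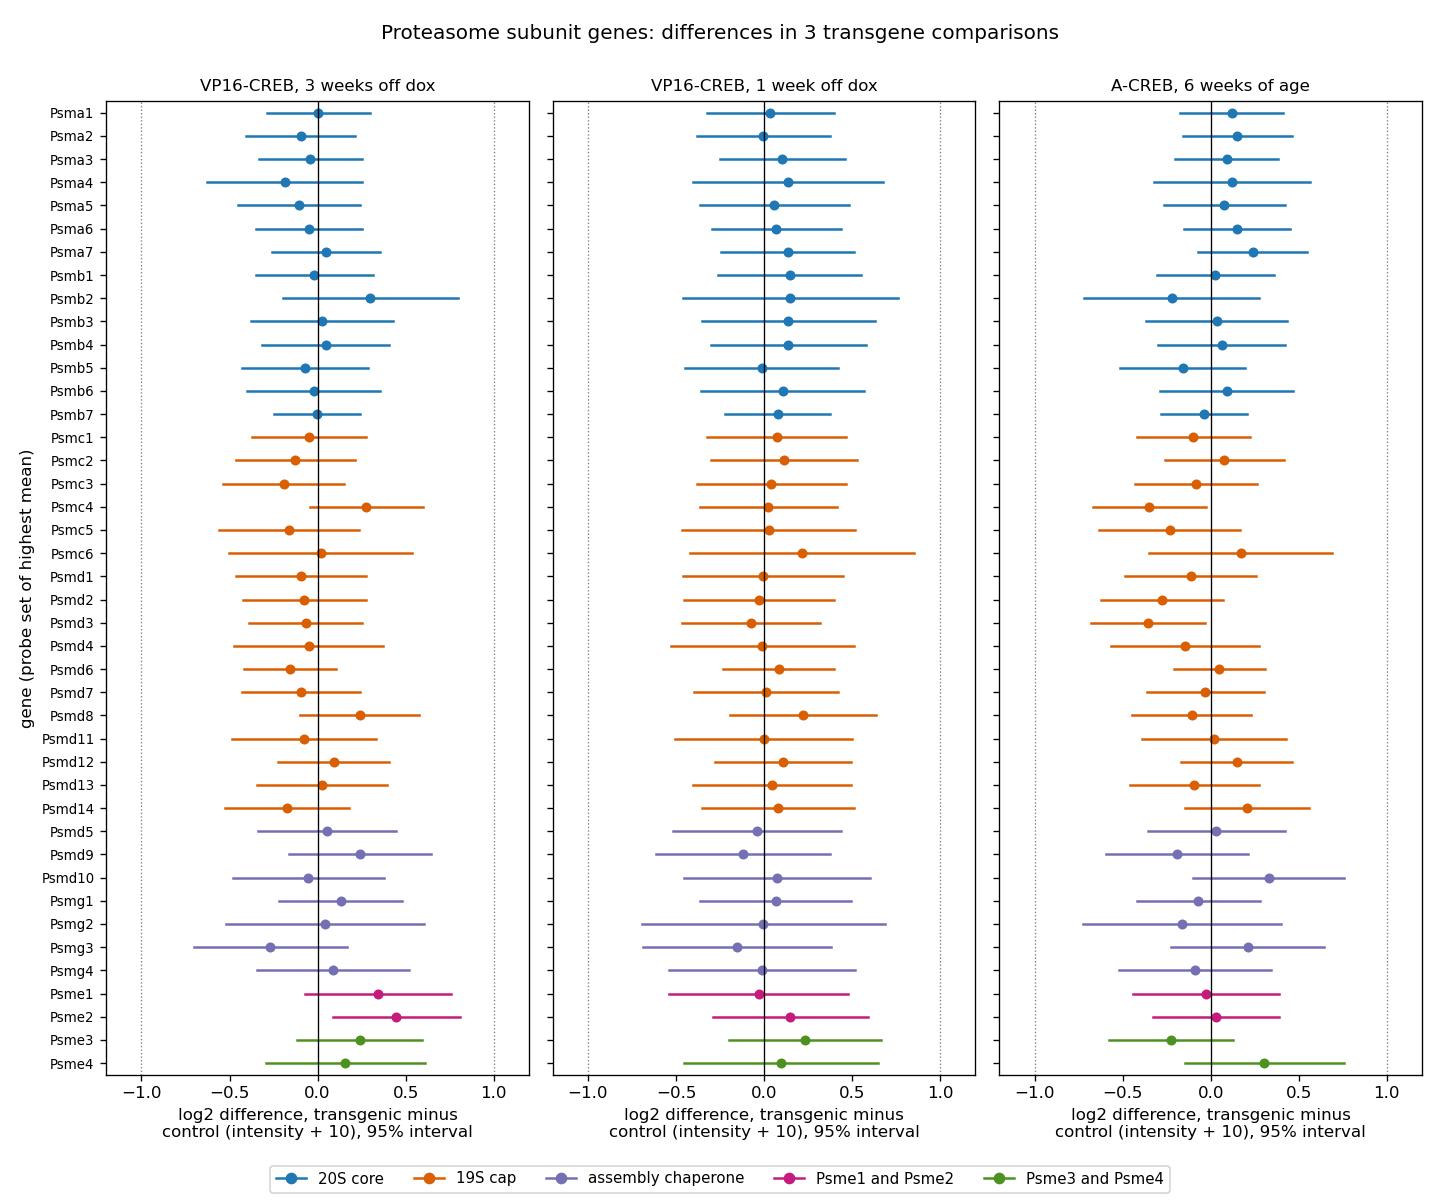
Log2 difference between transgenic and control pools (dot) with its 95% interval (line) for 42 proteasome genes, in 3 panels for VP16-CREB at 3 weeks, VP16-CREB at 1 week and A-CREB, coloured by class. No interval reaches the dotted lines at a 2-fold change, and at 3 weeks the 2 points farthest to the right are Psme2 (0.45) and Psme1 (0.34).

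The classes differed in their medians by small amounts. At 3 weeks the median log2 difference was -0.043 over the 73 members, with 31 above 0 and 42 below, beside -0.014 over all probe sets tested. It was -0.007 over the 24 core probe sets, -0.093 over the 31 of the cap (24 of them below 0), 0.115 over the 7 of Psme3 and Psme4, 0.053 over the 9 of assembly chaperones, and 0.39 over the pair for Psme1 and Psme2. Centring each array on its median shifted the median of all probe sets to -0.087 and the split of the members to 20 above 0 and 53 below. At 1 week the median was 0.058 over the members (50 above 0 and 23 below, or 22 and 51 after centring) beside 0.018 over all, with 0.104 in the core, 0.042 in the cap and 0.059 for Psme1 and Psme2. In A-CREB mice it was 0.027 (39 above 0 and 34 below) beside 0.003 over all, with 0.084 in the core, -0.031 in the cap and 0.002 for Psme1 and Psme2.

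Per pool, the medians of the core overlapped between the groups at 3 weeks and those of the cap did not. Relative to the mean of its controls, the median over the 14 core genes was 0.09, -0.09 and -0.08 in the 3 VP16-CREB pools at 3 weeks and -0.05, 0.10 and -0.04 in the controls. Over the 17 cap genes it was -0.03, -0.06 and -0.12 in the transgenic pools and -0.02, 0.04 and 0.00 in the controls, so all 3 transgenic pools lay below all 3 controls, the nearest of them narrowly. Over Psme1 and Psme2 it was 0.46, 0.36 and 0.36 in the transgenic pools and -0.05, 0.07 and -0.02 in the controls, without overlap. Of all single probe sets, 12.8% were wholly below and 14.9% wholly above the controls at 3 weeks. No such share was computed for medians of a class. At 1 week both controls stood apart from each other, with cap medians of 0.20 and -0.20, and both transgenic pools (0.16 and -0.04) lay between them. Without control pool 1 the median over all members at 1 week was 0.20, and without control pool 2 it was -0.07, so its sign depends on 1 control pool.

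**Figure D2:**
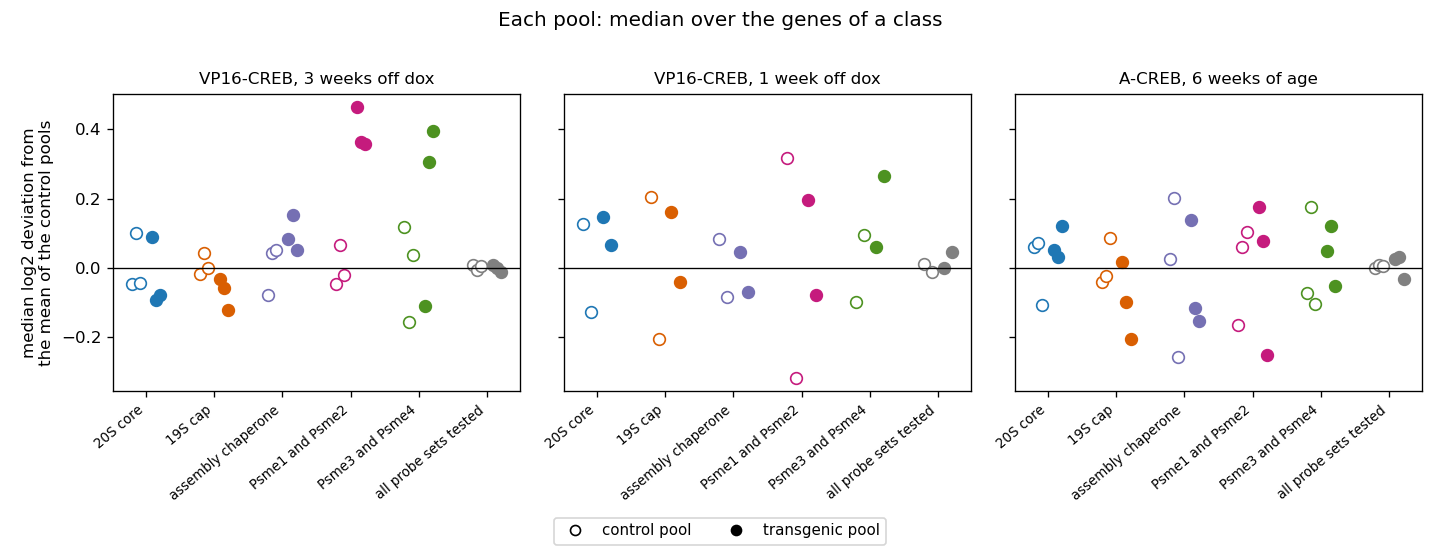
Median log2 deviation from the mean of the control pools, over the genes of each class and over all probe sets tested, for every control pool (open) and transgenic pool (filled) in the 3 comparisons. Filled and open points overlap in the core and the chaperones in all 3 panels, while for Psme1 and Psme2 at 3 weeks the filled points (0.36 to 0.46) lie above the open ones (-0.05 to 0.07).

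The catalytic subunits of the constitutive core showed no change past the test. Psmb5, the chymotrypsin-like site, had intensities of 5809, 4692 and 4808 in the VP16-CREB pools at 3 weeks and 5109, 5876 and 5073 in the controls, and the groups overlapped (log2 difference -0.07, SE 0.17, limma adjusted p = 0.937). In the same pools Psmb6, the caspase-like site, had 5356, 4298 and 4423 against 4296, 5950 and 4175 in the controls, again overlapping (-0.02, SE 0.18, limma adjusted p = 0.984). Psmb7, the trypsin-like site, had 11087, 10228 and 10567 against 10845, 10387 and 10662 (-0.001, SE 0.11, limma adjusted p = 0.998). The 95% interval for Psmb7 ran from -0.24 to 0.24.

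At 1 week the log2 differences of these subunits were -0.01 (SE 0.20) for Psmb5, 0.11 (SE 0.22) for Psmb6 and 0.08 (SE 0.14) for Psmb7. The 1 week controls of Psmb5 were 6585 and 4404 with 5631 and 5051 in the transgenic pools, so the spread between controls exceeded the difference. Psmb7 was at 11292 and 11285 in the controls and at 11479 and 12369 in the transgenic pools, which did not overlap, as was true of 15.7% of all probe sets in that direction at 2 pools a group. In A-CREB mice the differences were -0.16 (SE 0.17) for Psmb5, 0.09 (SE 0.18) for Psmb6 and -0.04 (SE 0.11) for Psmb7, with overlapping pools for each. Over the 42 genes in A-CREB mice, 1 (Psme4) had transgenic pools wholly above the controls, beside 3.54% of all probe sets, and 2 (Psmc4 and Psmd3) wholly below, beside 3.28%.

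The other beta subunits are structural. Psmb1, Psmb3 and Psmb4 had log2 differences of -0.02, 0.02 and 0.05 at 3 weeks, 0.15, 0.14 and 0.14 at 1 week, and 0.03, 0.03 and 0.06 in A-CREB mice, with SEs of 0.15 to 0.23. Psmb2 had the largest positive difference of the core at 3 weeks and at 1 week and the largest negative one in A-CREB mice. Its intensities at 3 weeks were 3185, 3109 and 2995 in the VP16-CREB pools and 2411, 2827 and 2325 in the controls. All 3 transgenic pools lay above the controls, as did 14.9% of all probe sets, and the difference of 0.30 (SE 0.23) did not pass the test (limma adjusted p = 0.70).

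Psmb2 differed more between cohorts than between genotypes. Its control pools had a mean of 2521 ± 268 (SD, n = 3) in the 3 week cohort, 1125 ± 134 (n = 2) in the 1 week cohort and 1492 ± 507 (n = 3) in the A-CREB cohort. At 1 week its transgenic pools were at 1076 and 1439, around the controls at 1219 and 1030.3 (0.15, SE 0.28). In A-CREB mice the pools were at 1184, 1448 and 1066 against 926, 1906 and 1645 in the controls, which overlapped (-0.22, SE 0.23, or -0.53 without control pool 1). The 1 week controls were younger, and the 3 week and A-CREB controls were of the same age. The latter groups differed in cohort, doxycycline schedule and the strain label of their transgenic littermates. They also differed in the median intensity of their arrays and in the sex of A-CREB control pool 1, and these differences cannot be told apart.

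The alpha ring genes stayed close to their controls. Psma1, Psma2, Psma3, Psma5 and Psma6 had log2 differences between -0.11 and 0.003 at 3 weeks, between -0.005 and 0.10 at 1 week and between 0.08 and 0.15 in A-CREB mice, all with overlapping pools. Psma4 had the largest negative difference of the core at 3 weeks, with 4027, 4333 and 4847 in the VP16-CREB pools and 5963, 4026 and 5204 in the controls. The groups overlapped across most of their range (-0.19, SE 0.21, limma adjusted p = 0.825). Psma4 at 1 week had 4320 and 3943 against 3762 and 3743 (0.14, SE 0.25). Its transgenic pools lay above the controls, as did 15.7% of all probe sets. Psma7 had the largest positive difference of the core in A-CREB mice, with 4758, 5051 and 5273 against 4452, 4964 and 3489 in the controls. That difference was 0.24 (SE 0.14, limma adjusted p = 0.9997), and it was 0.10 without control pool 3, the lowest of its group.

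In the ATPase ring of the cap, Psmc4 had the largest positive difference of the cap at 3 weeks and a negative one in A-CREB mice. At 3 weeks its intensities were 4261, 4687 and 5760 in the VP16-CREB pools and 3626, 4340 and 4102 in the controls, which overlapped narrowly. The log2 difference was 0.28 (SE 0.15, 95% interval -0.04 to 0.60, limma adjusted p = 0.473, or 0.0301 with array weights). The fit with array weights called 4139 of all 27047 probe sets at 3 weeks. In A-CREB mice the pools were at 2697, 2759 and 3027 against 3950.4, 3545 and 3318, all 3 below the controls, as were 3.28% of all probe sets. The difference there was -0.35 (SE 0.15, unadjusted p = 0.035 and adjusted p = 0.9997 in limma's fit), and it was -0.25 (SE 0.19) without both pools of males.

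The contrast of the 2 effects on Psmc4 was 0.62 (SE 0.21, unadjusted p = 0.0103 and adjusted p = 0.293 in limma's fit), which did not pass the threshold that 0.887% of all probe sets passed (0.828% in this direction). Over 23 alternative settings its adjusted p ranged from 0.0798 to 0.638. Another Psmc4 probe set gave 0.10 (SE 0.17) at 3 weeks and -0.26 (SE 0.17) in A-CREB mice, and a contrast of 0.35 (SE 0.24, limma adjusted p = 0.794). At 1 week Psmc4 had 4684 and 5144 in the transgenic pools and 5259 and 4430.2 in the controls (0.02, SE 0.18).

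The remaining ATPases varied less. Psmc3 had the largest negative difference of the cap at 3 weeks, with 4289, 4293 and 4022 in the VP16-CREB pools and 4609, 4948 and 4845 in the controls. All 3 transgenic pools lay below the controls, as did 12.8% of all probe sets, and the difference of -0.19 (SE 0.16) did not pass the test (limma adjusted p = 0.731). Psmc1, Psmc2, Psmc5 and Psmc6 had differences of -0.05, -0.13, -0.16 and 0.02 at 3 weeks, 0.07, 0.11, 0.03 and 0.21 at 1 week, and -0.10, 0.08, -0.23 and 0.17 in A-CREB mice. Of these, Psmc5 at 3 weeks had transgenic pools wholly below the controls, as did 12.8% of all probe sets. A dimmer Psmc6 probe set was at 0.62 (SE 0.32) in A-CREB mice, the largest positive value of any member there.

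Among the non-ATPase subunits, Psmd3 had the largest negative difference of the cap in A-CREB mice. Its intensities were 1415, 1234 and 989 in the A-CREB pools and 1494, 1440.4 and 1692 in the controls. All 3 transgenic pools lay below, as did 3.28% of all probe sets. The difference was -0.36 (SE 0.15, unadjusted p = 0.0324 and adjusted p = 0.9997 in limma's fit) and ranged from -0.50 (without both pools of males) to -0.22 over 18 alternative settings. At 3 weeks Psmd3 was at 1360.1, 1226 and 1137 against 1246, 1350.4 and 1299 (-0.07, SE 0.15), and at 1 week at 1176 and 1206 against 1357 and 1158 (-0.07, SE 0.18), with overlap in both. Its VP16-CREB effect at 3 weeks minus its A-CREB effect was 0.29 (SE 0.21, limma adjusted p = 0.816).

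Psmd14, the deubiquitinase that removes the chain from the substrate, had 5282, 5812 and 5555 in the VP16-CREB pools at 3 weeks and 6607, 5862 and 6356 in the controls. The transgenic pools lay wholly below the controls, as did 12.8% of all probe sets (-0.18, SE 0.16, limma adjusted p = 0.776). It had the largest positive difference of the cap in A-CREB mice, 0.21 (SE 0.16), where the pools at 6218, 6531 and 8389 overlapped controls at 6835, 6684 and 4850.1. Psmd8, a structural subunit of the lid, had 3839, 3657 and 3706 against 3125, 3313 and 3056 at 3 weeks. Its transgenic pools lay wholly above the controls, as did 14.9% of all probe sets (0.24, SE 0.16, limma adjusted p = 0.609). Psmd8 was also the largest positive value of the cap at 1 week (0.22, SE 0.19), where its pools at 4111 and 3879 overlapped controls at 3949.9 and 2968.

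The ubiquitin receptor Psmd4 had differences of -0.05 at 3 weeks, -0.01 at 1 week and -0.15 in A-CREB mice. The scaffolds Psmd1 and Psmd2 had -0.10 and -0.08 at 3 weeks, -0.01 and -0.03 at 1 week, and -0.11 and -0.28 in A-CREB mice, with SEs of 0.16 to 0.21. The lid subunits Psmd6, Psmd7, Psmd11, Psmd12 and Psmd13 lay between -0.16 and 0.09 at 3 weeks, between -0.003 and 0.11 at 1 week and between -0.09 and 0.15 in A-CREB mice. Over the 17 cap genes, 4 had transgenic pools wholly below the controls at 3 weeks (Psmc3, Psmc5, Psmd2 and Psmd14) and 1 wholly above (Psmd8). The 4 make 23.5% of the cap genes, and over all 31 cap probe sets 5 (16.1%) were wholly below and 1 (3.23%) wholly above. Over the 42 genes 4 were wholly below and 4 wholly above, or 9.52% each. Of all probe sets tested, 12.8% were wholly below and 14.9% wholly above. Without a test these counts are a description.

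**Figure D3:**
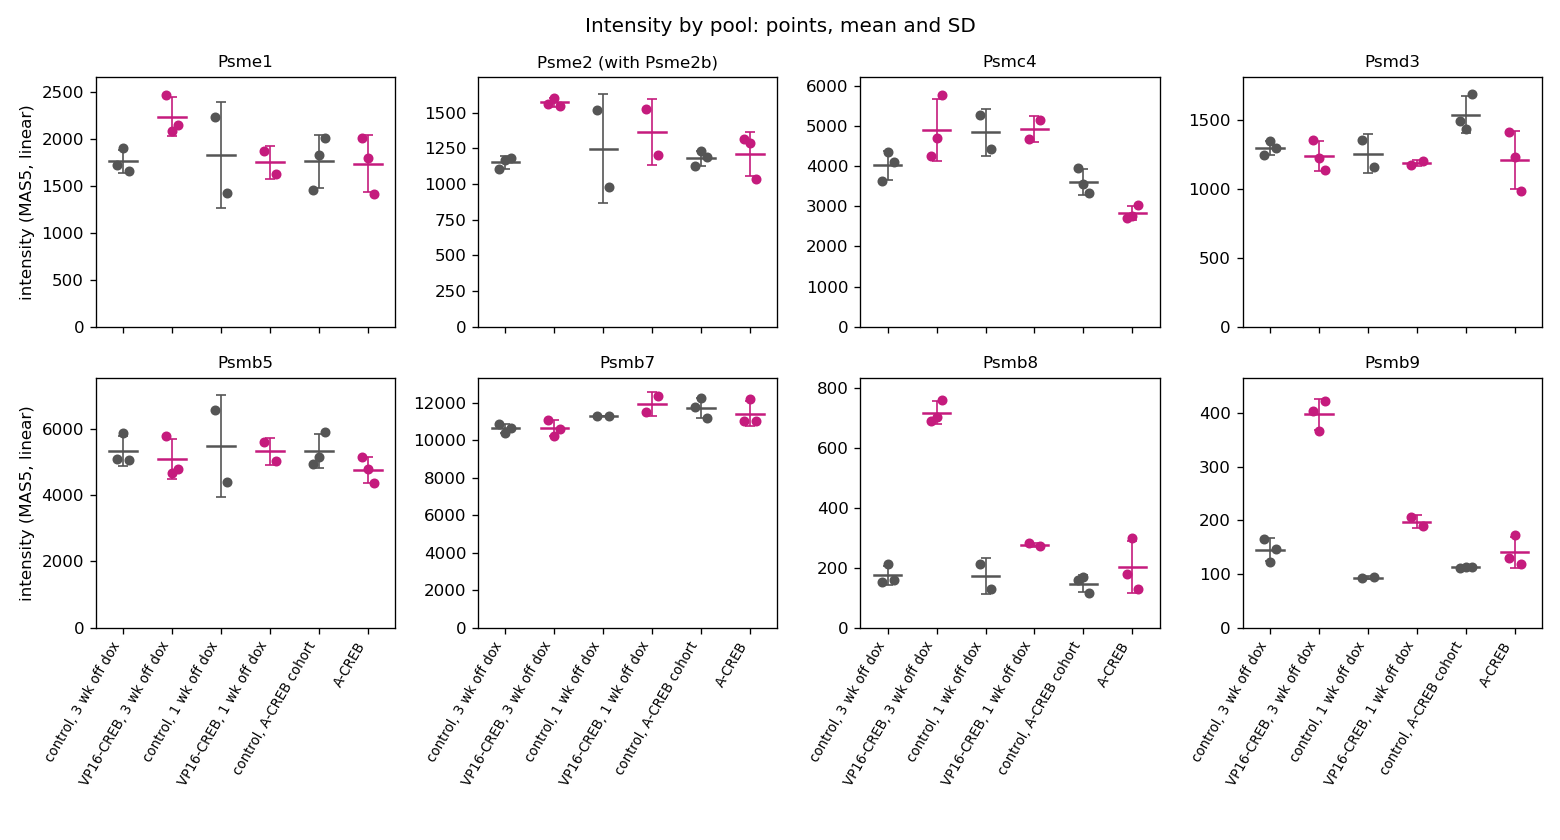
Intensity on a linear scale of each pool (points), with the group mean and SD (lines and bars), for Psme1, Psme2, Psmc4, Psmd3, Psmb5 and Psmb7 and for the inducible Psmb8 and Psmb9, in control pools (grey) and transgenic pools (magenta). Psmb8 and Psmb9 stand clear of their controls at 3 weeks (mean 717 against 174 and 398 against 145), Psme1 and Psme2 lie above theirs by a smaller factor, and Psmb5 and Psmb7 overlap theirs at 3 weeks.

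The interferon-inducible activator genes had the largest positive differences of the 42 genes at 3 weeks. Psme2 was measured by a probe set annotated to Psme2 and to its near-identical paralogue Psme2b, which cannot be told apart here. Its intensities were 1564, 1606 and 1548 in the VP16-CREB pools and 1103, 1165 and 1184 in the controls, a gap of more than the spread within either group. Of all probe sets, 14.9% had transgenic pools wholly above the controls at 3 weeks. The log2 difference was 0.45 (SE 0.17, 95% interval 0.09 to 0.81), a fold of 1.36, with an unadjusted p of 0.0185 and an adjusted p of 0.216 in limma's fit. Over 17 alternative settings its limma adjusted p ranged from 0.00747, with array weights, to 0.465. The setting with array weights called 4139 of all 27047 probe sets.

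Psme1, the alpha subunit of the same ring, had 2469, 2088 and 2152 in the VP16-CREB pools and 1721, 1901 and 1662 in the controls. All 3 transgenic pools lay above the controls, as did 14.9% of all probe sets. The difference was 0.34 (SE 0.19, 95% interval -0.07 to 0.76, limma adjusted p = 0.51). At 1 week the Psme1 pools were at 1875 and 1624 against 2229 and 1426 (-0.03, SE 0.24), and the Psme2 pools at 1527 and 1199.9 against 1516 and 981 (0.15, SE 0.21), with overlap in both. In A-CREB mice Psme1 was at 2005, 1795 and 1408 against 1455, 1828 and 2008 (-0.03, SE 0.19), and Psme2 at 1318, 1284 and 1034 against 1126, 1229 and 1187 (0.03, SE 0.17), again overlapping.

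The growth of these values from 1 week to 3 weeks did not pass the test, at 0.37 (SE 0.31) for Psme1 and 0.30 (SE 0.26) for Psme2, and neither did their contrast with A-CREB, at 0.37 (SE 0.27) and 0.42 (SE 0.24). The smallest adjusted p of these in limma's fit was 0.707. Both contrasts in time depend on the 1 week controls: without control pool 1 they were 0.05 and -0.01, and without control pool 2 they were 0.69 and 0.61. Over all members 0 of 73 passed the contrast of 3 weeks with 1 week, against 0.0037% of all probe sets, and 0 of 73 the contrast of VP16-CREB at 3 weeks with A-CREB, against 0.887%. At an unadjusted p under 0.05 they numbered 0 and 3, beside 4.99% and 8.7% of all.

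Other activators are encoded by Psme3, the nuclear PA28 gamma, and Psme4, the PA200 cap. Psme3 had differences of 0.24 (SE 0.16) at 3 weeks, 0.23 (SE 0.20) at 1 week and -0.22 (SE 0.16) in A-CREB mice. Another Psme3 probe set, of mean intensity 651, had 0.33, -0.12 and -0.36, so the 2 differed in sign at 1 week. At 3 weeks it was at 679, 648 and 706 against 567, 503 and 541, wholly above the controls, as were 14.9% of all probe sets. Its contrast of 3 weeks with A-CREB was 0.69, the largest positive one of the members, and did not pass the test. Psme4 had 0.16 (SE 0.21), 0.10 (SE 0.26) and 0.30 (SE 0.21). The 5 probe sets of Psme4 disagreed: the 3 brighter ones were at 0.11 to 0.16 at 3 weeks, and the 2 dimmest were at -0.58 and -0.50. The dimmest was at 107.7, 92.0 and 96.6 in the VP16-CREB pools and 168, 163 and 129.9 in the controls, and at 25.5 or less in the other cohorts. It passed the filter on low values through its high 3 week controls, so its difference there is given as a description.

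The genes of assembly chaperones, which build the core (Psmg1 to Psmg4) or the base of the cap (Psmd5, Psmd9 and Psmd10), showed no shared direction. At 3 weeks Psmg1, Psmg2, Psmg3 and Psmg4 had differences of 0.13, 0.04, -0.27 and 0.09, and Psmd5, Psmd9 and Psmd10 had 0.05, 0.24 and -0.05. At 1 week these were 0.07, -0.01, -0.16 and -0.01 for the Psmg genes and -0.04, -0.12 and 0.07 for the Psmd genes. In A-CREB mice they were -0.07, -0.16, 0.21 and -0.09, and 0.03, -0.19 and 0.33. The SEs ran from 0.16 to 0.32, so each value was within 2 SEs of 0.

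In each transgene comparison the largest absolute difference was found at a dim probe set. Of the 73 members, 12 had a mean intensity at or below 300 over the 16 arrays. Their median absolute log2 difference was 0.21 at 3 weeks, 0.19 at 1 week and 0.28 in A-CREB mice, with median SEs of 0.25, 0.31 and 0.25. The 61 brighter ones had 0.09, 0.07 and 0.12, with SEs of 0.17, 0.20 and 0.17. Of the 20 genes with several measured probe sets, Psme4 had the widest range of differences in A-CREB mice, from -1.02 to 0.52, and its lowest value came from a probe set with mean intensities of 19.5 and 46.7.

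**Figure D4:**
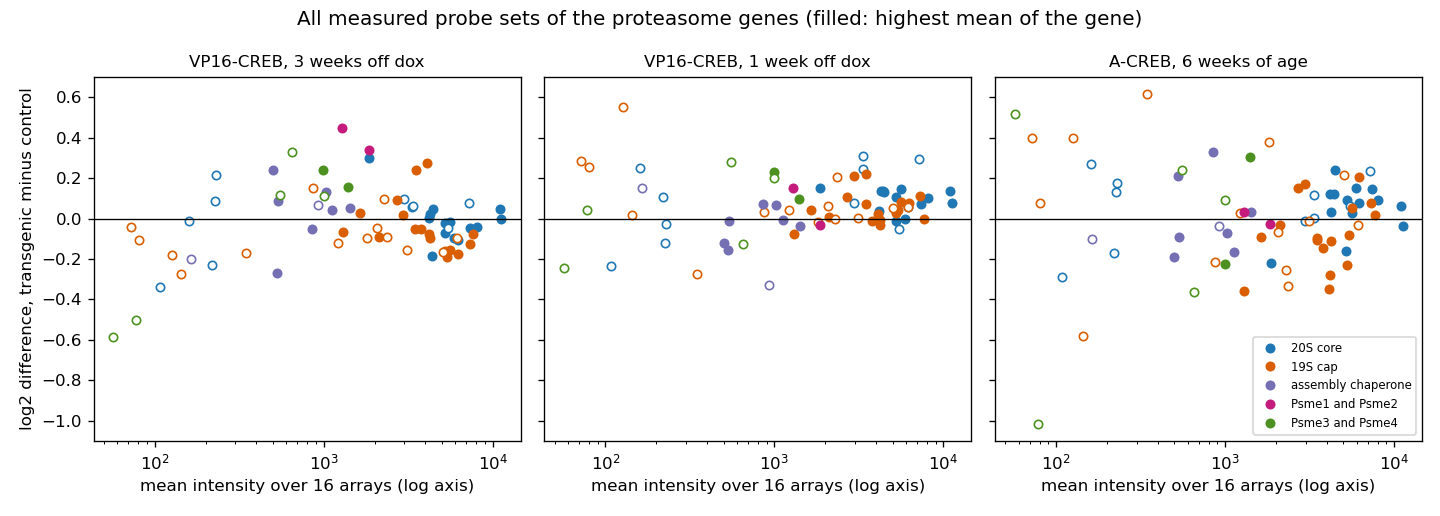
Log2 difference against mean intensity over the 16 arrays (log axis) for all 73 probe sets in the 3 comparisons, filled for the probe set that represents its gene and open for the others, coloured by class. The points spread widely at low intensities and narrow toward high ones. In each panel the value farthest from 0 belongs to a dim probe set, such as -1.02 for a Psme4 probe set in A-CREB mice. The largest positive values at 3 weeks (Psme2, 0.45) and in A-CREB mice (Psmc6, 0.62) belong to probe sets with a mean intensity above 300.

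Other genes of the ubiquitin-proteasome pathway were measured for 25 of the 34 listed. At 3 weeks 3 rose and 0 fell. Psmb8 rose to 717 ± 38 (SD, n = 3) from 174 ± 33 (n = 3), a log2 difference of 2.00 (SE 0.26, limma adjusted p = 0.000467). Psmb9 rose to 398 ± 29 from 145 ± 21 (1.40, SE 0.15, limma adjusted p = 8.15e-05). The third was Nfe2l2, the transcription factor Nrf2 of the oxidative stress response, which rose to 1250.1 ± 177 from 565 ± 44 (1.13, SE 0.14, limma adjusted p = 0.0003). Its relative Nfe2l1 was at 0.03 (SE 0.26, limma adjusted p = 0.984).

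Psmb10, the remaining inducible catalytic subunit, had 1845, 1391 and 1303 in the VP16-CREB pools at 3 weeks and 1167, 1267 and 1140.3 in the controls. All 3 transgenic pools were higher, as were those of 14.9% of all probe sets, and the difference was 0.33 (SE 0.16, limma adjusted p = 0.401). At 1 week 1 pathway gene rose, Psmb9, to 206 and 189.5 from 91.7 and 95.1 (1.01, SE 0.19, limma adjusted p = 0.0498), a call that was lost in 12 of 15 alternative settings. Psmb8 was then at 281 and 272 against 213 and 129 (0.70, SE 0.32, limma adjusted p = 0.939). In A-CREB mice 0 of the 25 passed.

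The proteasome partners and regulators gave 0 called of 8 measured at 3 weeks and a median of 0.01. Among them were Pomp, the maturation factor of the core (-0.05), the deubiquitinase Usp14 (-0.02) and the inhibitor Psmf1 (0.06). The substrate shuttles and unfolding factors gave 0 called of 9, with the segregase Vcp at -0.01.

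The ratio of an inducible subunit to the constitutive one whose place it takes was computed within each pool on the log2 scale. Its level depends on the probes, so it is compared only between groups. Psmb8 over Psmb5 was -3.06 to -2.65 in the VP16-CREB pools at 3 weeks and -5.00 to -4.73 in the controls, a difference of 2.07. Psmb9 over Psmb6 differed by 1.42 and Psmb10 over Psmb7 by 0.33, and pools did not overlap for any of the 3 ratios. The two-sided exact permutation p was 0.1 for each, the smallest that 3 against 3 pools can give, and 0.3 after adjustment over the 9 ratios compared. At 1 week the differences were 0.72, 0.90 and 0.04 (exact permutation p = 0.333, 0.333 and 0.667), where the smallest p possible with 2 against 2 pools is 0.333. In A-CREB mice they were 0.53, 0.19 and 0.07 (exact permutation p = 0.4, 0.5 and 0.9). Adjusted values at 1 week and in A-CREB mice were 0.599 or more.

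The values of Psme1, Psme2, Psmb8 and Psmb9 at 3 weeks stand beside changes in cell type markers in the same pools. The 14 measured microglial markers had a summed intensity of 64425 to 76043 in the VP16-CREB pools and 16420 to 17058 in the controls. The 10 interferon response genes summed to 5260 to 6636 against 1704 to 1902, and the 4 dentate granule neuron markers to 3284 to 4313 against 7853 to 7899. Of 8 astrocyte markers 2 rose, Gfap, the intermediate filament of astrocytes (log2 difference 2.76, limma adjusted p = 1.4e-05), and the water channel Aqp4 (1.13, limma adjusted p = 0.00894), and the 8 summed to 74882 to 96199 against 59768 to 71218. The lists for oligodendrocytes, endothelium, choroid plexus and neurons had 0 genes past the test in any transgene comparison. At 3 weeks they had 0, 1, 0 and 2 at an unadjusted p under 0.05. No microglial marker was at 0 in any pool, and Trem2, the lowest of 3 named here, ranged over the 16 pools from 126.8 to 1928, C1qa from 1306 to 12469 and Tyrobp from 562 to 8045. In whole hippocampus a change in the number of cells of a type and a change in RNA per cell cannot be told apart, and the part of these markers in the proteasome values was not tested.

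At 1 week the sums were 29402 to 34169 against 16458 to 21708 for microglia and 2672 to 3280.2 against 1851 to 1969 for the interferon response, with 1 gene of each list past the test. The astrocyte sums were 65192 to 80508 against 58682 to 60944, and Gfap rose (1.80, limma adjusted p = 0.0229). In A-CREB mice the microglial and interferon sums were 19615 to 26322 against 17120 to 20325 and 2567 to 3492 against 1427 to 1899, and the astrocyte sums were 60007 to 78458 against 56178 to 67878, with 0 of 8 past the test. The interferon sums of transgenic and control pools did not overlap in A-CREB mice, where Psme1 and Psme2 were at -0.03 and 0.03 and 0 of the 10 genes passed the test (6 at an unadjusted p under 0.05).

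The control pools of the 3 cohorts also differed in members. Over the 17 cap genes, the 3 week controls were wholly below the A-CREB controls of the same age for 7 and wholly above for 0, with a median log2 difference of -0.20 beside 0.05 over all probe sets tested. That is 41.2% of the cap genes, beside 12.8% of all probe sets with non-overlapping pools in that direction. Over the 14 core genes it was 1 below and 1 above, the latter being Psmb2 (beside 22.3% of all probe sets wholly above), with a median of -0.01. The 3 week and A-CREB controls differed in cohort, doxycycline schedule and the strain label of their transgenic littermates. Their arrays differed in median intensity, and A-CREB control pool 1 was male. These differences cannot be told apart here.

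Promoter sequences, taken from RefSeq (GRCm38.p6, from 250 bases before to 50 after the annotated start), were matched for 35 of the 42 genes. The full cAMP response element, TGACGTCA, which CREB binds, was in none of the 35 on either strand, beside 2.03% of all genes. Its short form TGACG was in 18 (51.4%) beside 23.0% of all genes, on either strand. The antioxidant response element bound by Nfe2l1 and Nfe2l2, searched as TGACNNNGC, was in 6 (17.1%) beside 14.0%. The interferon response element, searched on either strand as GAAA, any 2 bases and GAAA again, was in 5 (14.3%) beside 3.99%.

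The sites of 5 genes whose values are described above are printed 5′ to 3′ on the strand of the gene, in lower case with the match in capitals. Psme1 and Psmg4 are shown as holders of the interferon element, which lies 9 and 15 bases after their starts (chr14:55578493-55578522 and chr13:34162969-34162998), on the opposite strand in Psme1. Psmb5 and Psmb6 are shown as catalytic subunits with the antioxidant element, 47 and 9 bases before the start (chr14:54618023-54618052, minus strand, and chr11:70525338-70525367). In both of these the first bases also match TGACG, so the 2 motifs overlap. For Psmb6 the start is that of the promoter window used. The gene itself is listed from chr11:70525324 on, so the match lies inside it. Psmc4 is shown for the short cAMP element, 51 bases before its start (chr7:28050126-28050155, minus strand), on the opposite strand.
Psme1: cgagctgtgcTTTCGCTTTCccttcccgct
Psmg4: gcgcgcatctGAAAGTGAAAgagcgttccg
Psmb5: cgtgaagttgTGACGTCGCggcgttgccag
Psmb6: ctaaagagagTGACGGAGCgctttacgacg
Psmc4: tgttatccggccCGTCAggtcaacccgcag

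The 5 genes with the interferon element (Psmb3, Psmd4, Psmd9, Psme1 and Psmg4) had a median log2 difference of 0.09 at 3 weeks, ranging from -0.05 to 0.34, beside -0.04 for the 30 without it. The 6 with the antioxidant element (Psmb5, Psmb6, Psmc6, Psmd9, Psmd12 and Psme4) had 0.05, ranging from -0.07 to 0.24, beside -0.05 for the 29 without it. The 18 with TGACG had 0.05 at 3 weeks, beside -0.05 for the 17 without it, 0.10 beside -0.003 at 1 week, and 0.04 beside 0.02 in A-CREB mice. No test was made on these medians. A match is a description of letters in this window and shows no binding.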

How the data were processed

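The authors deposited 1 table of intensity values on a linear scale for 16 Affymetrix whole-genome mouse arrays. The tool was MAS5, as named in the submitters' processing notes without a version. The mean of each array without the outer 2% of values at each end was equal on all arrays, so the authors' scaling was kept. MAS5 subtracts mismatch signal, which makes dim probe sets noisy. For arrays, their number limits the precision.

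Without the 64 control probe sets, each intensity was raised by 10 and log2 transformed, and probe sets above 99 on 2 or more arrays were kept (27047). Of all probe sets, 34945 had 1 gene symbol, 932 several and 9160 none. A linear model with a coefficient per group was fitted to all 16 arrays with limma 3.58.1 (lmFit and eBayes, two-sided, 10 residual and 3.44 prior degrees of freedom) in R 4.3.3, with Benjamini-Hochberg adjustment per comparison, and was tested on simulated data. Figures were drawn with Python 3.11.15 and matplotlib 3.10.9.

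The members and lists were chosen with earlier results of these data known. Every gene is named. Pool values go to genes called anywhere, Psme1, Psme2, Psmb5, Psmb6, Psmb7, and the largest differences of core and cap in each comparison. Of the pathway list the called genes and Psmb10 are named, with a few others chosen after their values were seen. Same-numbered pools correlated at -0.23 to 0.22, 0.15 and -0.05 to 0.41 in the 3 cohorts (deviations from group means). Differently numbered pools reached 0.34 at 3 weeks and 0.05 in the A-CREB cohort. At 1 week, with 2 pools a group, the deviations mirror each other and cannot show pairing. Both A-CREB cohort pools numbered 1 are male, so the numbers match by sex there. Whether the numbers pair the pools was not settled, and the main fit used no pairing. Alternatives were other pseudocounts, filters, scalings, variance models, array weights, a replicate block, 1 probe set per gene and each array left out.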

Additional observations from a re-analysis of the deposited data

How the results depend on the processing

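The count of proteasome probe sets called was 0 in every comparison and contrast under every alternative run, except with array weights at 3 weeks of VP16-CREB. That fit called 3 of the 73 members, beside 4139 of all 27047 probe sets. They were Psme2 (limma adjusted p = 0.00747, higher), Psmc4 (0.0301, higher) and the dimmest Psme4 probe set (0.0285, lower). This Psme4 probe set passed the filter on low values through its high controls, so its call is no support. With only the compared arrays in limma's fit the count of members called at 3 weeks was 0, at 6 unadjusted p-values under 0.05. The replicate block gave 0 member calls in all 5, with 2, 1, 3, 1 and 4 at an unadjusted p under 0.05, and 859, 23, 0, 0 and 144 calls over all probe sets. The median log2 difference of the members at 3 weeks was -0.116 with arrays centred on their median, by which the median of all probe sets shifted too. With each array left out it ranged from -0.0558 to -0.0064. At 1 week the same range was -0.072 to 0.20, its ends set by the control pools, and the sign was negative after centring (-0.049). In A-CREB mice it was -0.010 to 0.032, and -0.067 without both pools numbered 1, a setting chosen after seeing the data because these pools are male. Psmb8, Psmb9 and Nfe2l2 stayed called at 3 weeks in all 17 settings, with log2 differences of 1.91 to 2.19, 1.29 to 1.54 and 1.03 to 1.23. The call of Psmb9 in the contrast of 3 weeks with A-CREB (1.12, adjusted p = 0.0265) was lost in 13 of 23 settings. The cause of these changes was not tested. Low signal limits the 12 dim probe sets.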
